A study of Mus musculus with 5 samples.

Results

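The 9 transcription factor genes that set or keep the identity of monocytes and macrophages and that are described here are Spi1, Cebpa, Cebpb, Pparg, Bhlhe40, Bhlhe41, Maf, Klf2 and Klf4. They were picked by symbol, and each of the 9 symbols matched 1 of the 28693 features of the count matrices. The matrices came from 10x Genomics 3′ single-cell RNA sequencing of lung immune cells, with 1 library from PBS-treated (sham) mice and 1 each from mice at days 3, 7, 14 and 28 after bleomycin, which was instilled into the trachea and injures the lung. All 5 libraries, sham included, came from adult Ms4a3-CreER;R26-tdT mice on a C57BL6/129 mixed background. In these mice, tamoxifen-induced Cre under control of Ms4a3 switches on a tdTomato reporter in monocytes and their descendants. The paper reports that neutrophils were also affected when cells were ablated with the same driver. The study used adults of both sexes, but the sex and number of the animals behind each library are not given in the sources used here. With 1 library per time point there were no replicates, so differences between time points are given as values with counting error and no test.

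The files held 52800 barcodes, of which 44772 were kept for having between 300 and 8000 genes, a total between 800 and 60000 UMIs, and a mitochondrial share below 15%. The total per library lay between 89769386 and 167506186 UMIs, and the median per kept cell between 9260 and 14254 UMIs. The day 7 library held no barcode under 4624 UMIs, whereas the lowest barcode of the other libraries had 500 to 502 UMIs. Any pair of libraries shared 16 to 31 barcodes. Cells were then gated on sums of marker genes per 10000 UMIs, none of which is one of the 9 factors. The gates gave 20866 cells of 8 types: alveolar macrophages (AMs) low in Mmp12 and Mfge8 (11493 cells), AMs high in the sum of the 2 genes, called fibrotic AMs here (886 cells), cycling AMs (936 cells), C1q macrophages (2624 cells), fibrotic C1q macrophages (1611 cells), recruited macrophages that kept classical monocyte markers (1646 cells), classical monocytes (1099 cells) and nonclassical monocytes (571 cells). The C1q gate takes interstitial macrophages (IMs) and any other cells with C1qa, C1qb and C1qc and without AM markers. The UMIs of each type were summed per library and scaled to a common total as CPM, and 30 sums held 20 cells or more. All 13 AM markers were higher in AMs and all 8 C1q markers higher in C1q macrophages when these were compared. The AM markers other than Chil3, and C1qa, C1qb and C1qc, set these gates, so this was largely fixed in advance. In each library 338 to 1973 cells without markers of another lineage fell in no gate. Lower counts in a sum can come from fewer expressing cells or from less RNA per cell, and these cannot be told apart from a sum.

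PU.1, encoded by Spi1, and the C/EBP proteins, encoded by Cebpa and Cebpb, are the factors on which myeloid cells in general depend. PPAR gamma, encoded by Pparg, is induced by GM-CSF and TGF-beta in the lung and drives AM differentiation and lipid handling, and BHLHE40 and BHLHE41 are E-box-binding repressors that AMs need for self-renewal and identity. MAF is high in most other tissue macrophages and restrains self-renewal, and AMs are known for their low level of it. KLF2 and KLF4 are zinc finger factors, of which KLF2 keeps monocytes and lymphocytes quiescent and KLF4 is needed for monocyte differentiation.

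In the GENCODE vM21 annotation (GRCm38, the mm10 build of the files), all 9 genes were protein-coding and none overlapped another gene on its own strand. Spi1 lay at chr2:91082390-91115756 (+), Cebpa at chr7:35119293-35121928 (+), Cebpb at chr2:167688915-167690418 (+), Pparg at chr6:115360951-115490399 (+) and Bhlhe40 at chr6:108660629-108666925 (+). Bhlhe41 lay at chr6:145858243-145865558 (-), Maf at chr8:115682942-115707794 (-), Klf2 at chr8:72319033-72321656 (+) and Klf4 at chr4:55527143-55532466 (-). Antisense genes overlapped Cebpa, Cebpb, Pparg, Bhlhe40, Bhlhe41 and Maf.

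RefSeq promoter windows (GRCm38.p6, from 250 bases before to 50 bases after a transcription start) were at hand for 6 of the 9 factors, Cebpa, Cebpb, Pparg, Bhlhe41, Klf2 and Klf4. Windows of 3 of them are printed, Klf2 and Klf4 because their levels ran together over the sums described below, and Bhlhe41 because, like Klf4, it holds the E-box that BHLHE40 and BHLHE41 bind. Capitals mark the E-box CACGTG and the core TGACG of the cyclic AMP response element, searched on both strands, and the letters of the 2 motifs overlap in none of these windows.
Klf2, chr8:72318812-72319111, + strand: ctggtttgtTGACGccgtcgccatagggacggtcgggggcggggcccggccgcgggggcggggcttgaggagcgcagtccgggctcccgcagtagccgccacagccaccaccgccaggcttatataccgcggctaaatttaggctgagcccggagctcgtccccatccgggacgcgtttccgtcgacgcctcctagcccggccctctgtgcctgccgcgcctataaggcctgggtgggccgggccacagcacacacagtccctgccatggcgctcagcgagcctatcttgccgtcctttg
Klf4, chr4:55532426-55532725, - strand: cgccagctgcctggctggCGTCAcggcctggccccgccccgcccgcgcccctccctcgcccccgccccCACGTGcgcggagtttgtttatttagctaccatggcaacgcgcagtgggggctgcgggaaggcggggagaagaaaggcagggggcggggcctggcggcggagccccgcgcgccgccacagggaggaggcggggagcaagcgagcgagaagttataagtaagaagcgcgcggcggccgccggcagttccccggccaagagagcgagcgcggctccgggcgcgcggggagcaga
Bhlhe41, chr6:145865371-145865670, - strand: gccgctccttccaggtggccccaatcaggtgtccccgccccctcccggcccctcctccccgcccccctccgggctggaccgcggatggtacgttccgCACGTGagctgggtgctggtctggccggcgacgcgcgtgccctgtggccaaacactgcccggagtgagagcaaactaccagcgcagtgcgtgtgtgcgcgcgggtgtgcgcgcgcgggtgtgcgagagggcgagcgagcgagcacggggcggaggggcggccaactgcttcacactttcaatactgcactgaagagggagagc
Bhlhe41 and Klf4 held 1 E-box each, against 7.15% of all 32851 windows with at least 1. Klf2 and Klf4 held 1 TGACG each, against 20.8% of all windows with at least 1. The G and C content of these windows was 69.3% in Klf2, 74.3% in Klf4 and 70.7% in Bhlhe41, against a median of 52.7% over all windows. Windows of Cebpa, Cebpb and Pparg held no E-box. The Cebpb window, which is not printed, held 3 TGACG, and those of Cebpa, Pparg and Bhlhe41 held none. A match is a run of letters and not a measured binding site.

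Pparg and Bhlhe41 were the factors of the AM pole. Pparg stood at 128 CPM in sham AMs and at 108, 95.6, 126 and 94.1 CPM at days 3, 7, 14 and 28. In C1q macrophages it stood at 9.47 CPM in the sham library, which rests on 3 UMIs from 27 cells, and at 16.2, 15.1, 32.7 and 25.1 CPM at days 3, 7, 14 and 28. In each library Pparg was higher in AMs than in C1q macrophages.
Bhlhe41 stood in AMs at 225 CPM in the sham library and at 128, 188, 149 and 315 CPM at days 3, 7, 14 and 28. In C1q macrophages Bhlhe41 stood at 41.1, 35.3, 71.6, 86.8 and 185 CPM in the same order, so that its day 28 value in C1q macrophages was above the day 3 and day 14 values in AMs. In classical monocytes Bhlhe41 was at 5.34 to 11.5 CPM, within its range in T cells of 3.80 to 20.9 CPM. As a guide to free RNA in the droplets, Pparg ranged from 1.75 to 9.03 CPM in B cells and from 4.16 to 13.8 CPM in T cells. Whether some T cells express Pparg was not tested. Pparg in classical monocytes, at 4.58 to 14.0 CPM, and in sham C1q macrophages was within or just above the T cell range. The part of free RNA in these levels was not tested.

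**Figure D1:**
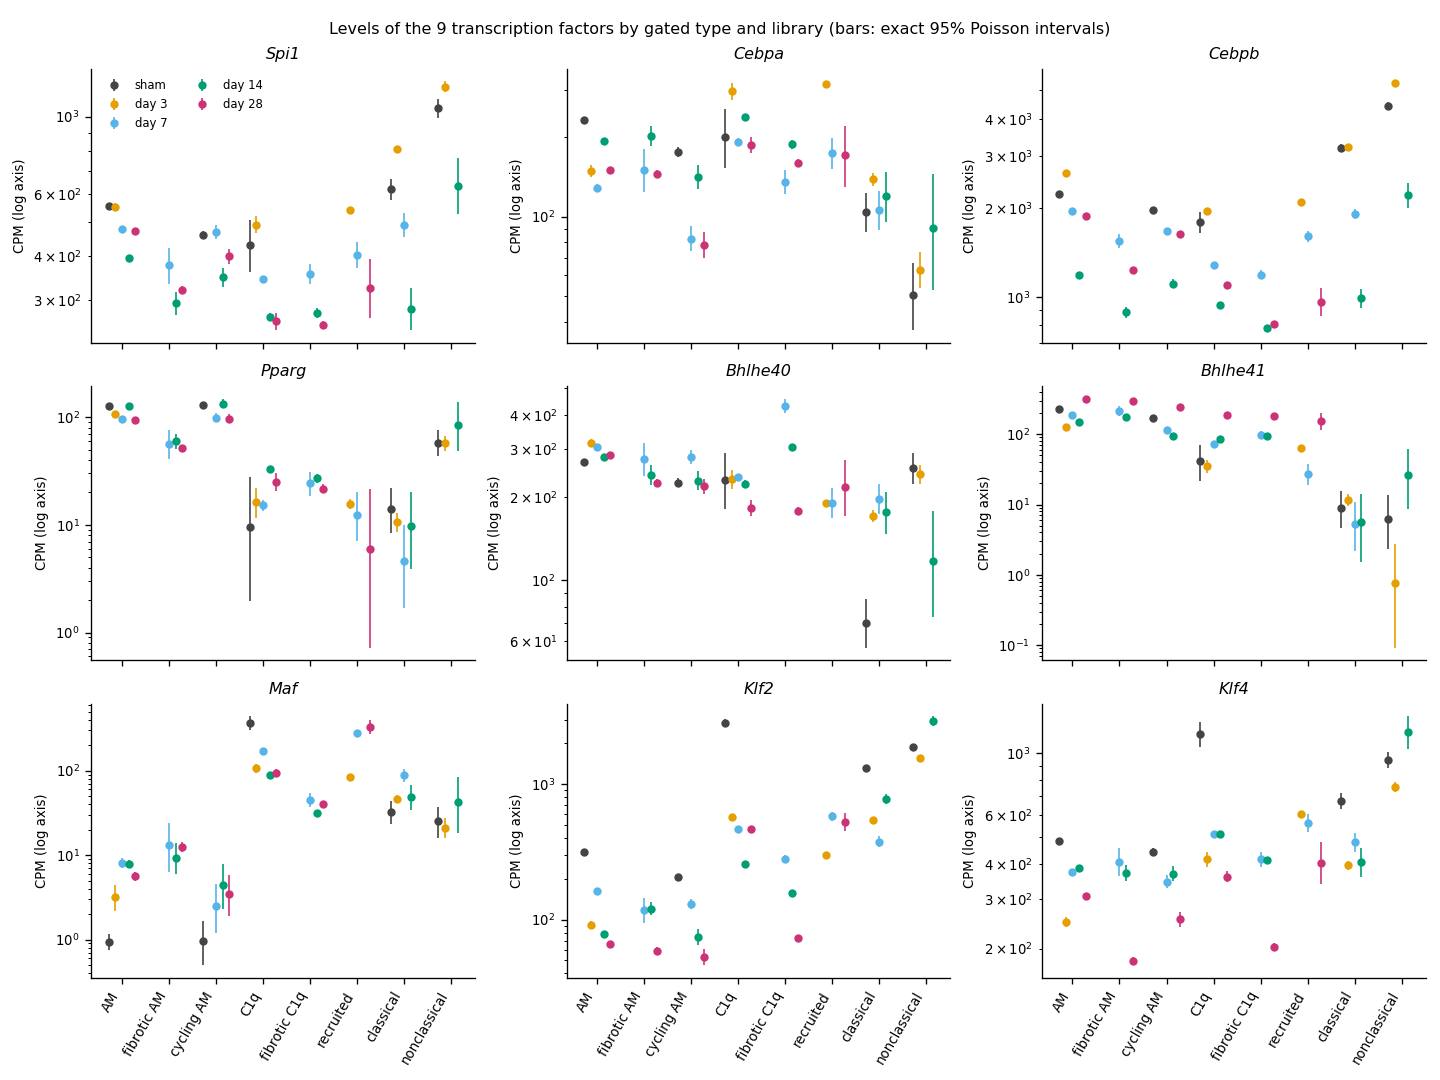
Levels of the 9 transcription factors as CPM on a log axis (y) in the 8 gated types (x), with 1 point per library of 20 cells or more, coloured by time point, and exact 95% Poisson intervals that cover counting error only. Pparg sat at 94.1 to 128 CPM in AMs and at 9.47 to 32.7 CPM in C1q macrophages, and Maf went the other way, from 0.943 to 8.06 CPM in AMs to 88.0 to 370 CPM in C1q macrophages.

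Maf ran opposite to Pparg. It was at 0.943 CPM in sham AMs (84 UMIs in 5113 cells) and at 3.16, 8.06, 7.81 and 5.63 CPM in AMs at days 3, 7, 14 and 28. In C1q macrophages it stood at 370 CPM in the sham library and at 107, 173, 88.0 and 94.8 CPM at the later times. In recruited macrophages Maf stood at 84.6 CPM at day 3, 276 CPM at day 7 and 328 CPM at day 28. These sums held 1465, 122 and 23 cells, and their classical monocyte markers summed to 6678, 3156 and 2987 CPM. The mix of cells in this gate therefore differed between the times, and its part in these Maf values was not tested. In classical monocytes Maf ranged from 32.4 to 87.8 CPM. T cells also had Maf, at 136 to 425 CPM, and T cell markers summed to 7.70 to 24.1 CPM in AMs and 9.47 to 20.3 CPM in C1q macrophages. Maf stood at 12.3 to 28.7 CPM in B cells and at 3.49 to 14.1 CPM in neutrophils. Its levels in AMs, fibrotic and cycling ones included, were below the highest value of either. The part of free RNA in these AM levels was not tested. The size of Maf folds that rest on AMs, here and below, is not exact.

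AMs were compared with C1q macrophages in all 5 libraries, which asks how the factors differ between the macrophages with AM markers, resident or recruited, and those with C1q markers. Of the 9 factors, 4 were higher in AMs (Pparg, Bhlhe41, Cebpb and Spi1) and 4 were lower (Maf, Klf2, Klf4 and Cebpa), so 8 of the 9 passed the threshold of an edgeR quasi-likelihood adjusted p under 0.05, with library as a block. Of all 11993 genes tested, 39.9% passed in this comparison.
Maf had the largest difference of the 9, with AMs lower by a log2 fold of -5.02 ± 0.68 (SE, n = 5 libraries, edgeR adjusted p = 0.000803) and lower in 5 of 5 libraries. Klf2 was lower in AMs by a log2 fold of -2.51 ± 0.25 (edgeR adjusted p = 0.000198), again in 5 of 5 libraries. Pparg was higher in AMs by 2.23 ± 0.22 on the log2 scale (edgeR adjusted p = 0.000174) and Bhlhe41 by 1.20 ± 0.25 (edgeR adjusted p = 0.00642), both in 5 of 5 libraries. Pparg in the sham, day 3 and day 7 C1q macrophages, at 9.47, 16.2 and 15.1 CPM, was within or near its T cell range. The size of this Pparg fold is therefore not exact.
The 4 smaller calls were Klf4 at a log2 fold of -0.75 ± 0.14, Cebpa at -0.54 ± 0.15, Cebpb at 0.37 ± 0.11 and Spi1 at 0.36 ± 0.10, with edgeR adjusted p from 0.00395 to 0.0329. Cebpa was lower in AMs in 4 of the 5 libraries, the sham library being the exception. Bhlhe40 differed by 0.27 ± 0.10 (edgeR adjusted p = 0.0558), which missed the threshold although it was higher in AMs in 5 of 5 libraries. Without the day 7, the day 14 or the day 28 library, 5 of the 9 factors passed in place of 8, and Pparg, Maf and Klf2 passed each time.

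The genes listed around these factors were read in the same comparison. Of 18 PPAR gamma target genes tested, 14 were higher in AMs and none lower, with a median log2 fold of 1.43 against 0.01 over all genes. Cidec, a lipid droplet protein, was higher by 6.06 ± 0.19, Pdk4, which restrains glucose oxidation, by 4.41 ± 0.37, and Mgll, a monoacylglycerol lipase, by 3.91 ± 0.47.
Of 10 genes listed as higher where MAF acts, 7 were lower in AMs, 2 were higher and the median log2 fold was -4.18. Tmem119 (-6.84 ± 0.42), the scavenger receptor gene Stab1 (-6.73 ± 0.88) and Apoe, which carries lipid (-6.04 ± 0.46), had the largest differences, and the mannose receptor gene Mrc1 (1.49 ± 0.26) and the efferocytosis receptor gene Mertk (0.82 ± 0.15) went the other way. Of 6 KLF2 and KLF4 target genes tested, 5 were lower in AMs, with Ccl24, Timd4 and Icam2 at log2 folds of -7.12, -6.49 and -5.87, and Thbd, thrombomodulin, was higher by 1.28 ± 0.21.
Of 46 other macrophage and monocyte factors tested, 11 were higher in AMs and 17 lower. Tfec (1.50 ± 0.25), Epas1 (1.47 ± 0.14) and Vdr (1.45 ± 0.27) led the higher side, and Gata6 (-4.09 ± 1.37) and Runx3 (-3.78 ± 0.27) were on the lower side. In the GM-CSF and TGF-beta list, 6 of 12 tested genes were higher, led by Csf2rb, a chain of the GM-CSF receptor (1.23 ± 0.15), Tgfbr2 (1.02 ± 0.10) and Stat5b (0.74 ± 0.10), and Smad3 (-2.81 ± 0.50) and Itgav (-0.75 ± 0.10) were lower.
Tissue digestion at 37 °C raises immediate early genes, and 17 of the 20 immediate early and dissociation genes were also lower in AMs, with none higher and a median log2 fold of -1.32. Their summed level was 4791 to 8072 CPM in AMs and 11264 to 25199 CPM in C1q macrophages, with the highest value in the 27 sham C1q cells. The part of this in the Klf2, Klf4 and Cebpb differences was not tested.

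AMs were set against classical monocytes in the sham, day 3, day 7 and day 14 libraries, the 4 with at least 20 cells of both types. The AM sums are the ones used above, so the comparisons are not independent. Bhlhe41 was higher in AMs by 4.23 ± 0.33 on the log2 scale (edgeR adjusted p = 0.000547), Pparg by 3.46 ± 0.25 (edgeR adjusted p = 0.000439) and Bhlhe40 by 0.94 ± 0.22 (edgeR adjusted p = 0.0203), each in 4 of 4 libraries. Maf was lower by a log2 fold of -3.81 ± 0.45 and Klf2 by -2.38 ± 0.33 (edgeR adjusted p = 0.00176 and 0.00297), again in 4 of 4 libraries. These 5 of 9 compare with 31.0% of all 11166 genes tested. Bhlhe41 in classical monocytes was within its T cell range given above, and Pparg was within or just above its own. The size of their folds over these monocytes, here and in the comparisons below, is therefore not exact. Immediate early and dissociation genes were also lower in AMs, in 16 of 20 with 2 higher and a median log2 fold of -0.95, and so were 8 of 9 cycling markers, and the part of these in the Klf2 difference was not tested. Without the sham, the day 3 or the day 7 library, calls over all genes went from 3459 to 2272, 1756 and 2008.
Cebpa (0.47 ± 0.21), Klf4 (-0.47 ± 0.19), Cebpb (-0.21 ± 0.23) and Spi1 (-0.15 ± 0.24) did not pass, with edgeR adjusted p from 0.107 to 0.667. Of 18 PPAR gamma target genes, 15 were higher in AMs and none lower, with a median log2 fold of 2.73. Cidec (6.64 ± 0.41), Mgll (5.58 ± 0.37) and Olr1 (4.25 ± 0.23), the oxidized LDL receptor gene, led them.

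C1q macrophages were compared with classical monocytes in the same 4 libraries. Of the 9 factors, 3 were higher in C1q macrophages and none lower, against 11.4% of all 8833 genes in either direction. Bhlhe41 was higher by 2.67 ± 0.46 on the log2 scale, Maf by 1.61 ± 0.40 and Cebpa by 1.02 ± 0.16, with edgeR adjusted p of 0.0132, 0.0452 and 0.00951, and each was higher in 4 of 4 libraries. Pparg had a log2 fold of 1.01 ± 0.40 (edgeR adjusted p = 0.156), Bhlhe40 of 0.71 ± 0.25, Cebpb of -0.51 ± 0.25, Spi1 of -0.41 ± 0.22, Klf4 of 0.38 ± 0.20 and Klf2 of 0.03 ± 0.37, none of which passed.
None of the 9 passed without the day 7 library, which holds the largest number of C1q macrophages here. Without the day 3 library 2 passed. Over all genes, calls went from 1008 to 282 of 8920 without the day 7 library, to 408 without the day 3 library and to 544 without the sham library.
Among the listed genes, 5 of 10 in the MAF list were higher in C1q macrophages, led by Gas6 (4.59 ± 0.86), Apoe (3.35 ± 0.49) and Mertk. Of 16 PPAR gamma target genes, 7 were higher, led by the fatty acid binding protein genes Fabp5 (2.97 ± 0.45) and Fabp4 (2.78 ± 0.25) and by Cd36 (2.14 ± 0.52), with none lower.

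**Figure D2:**
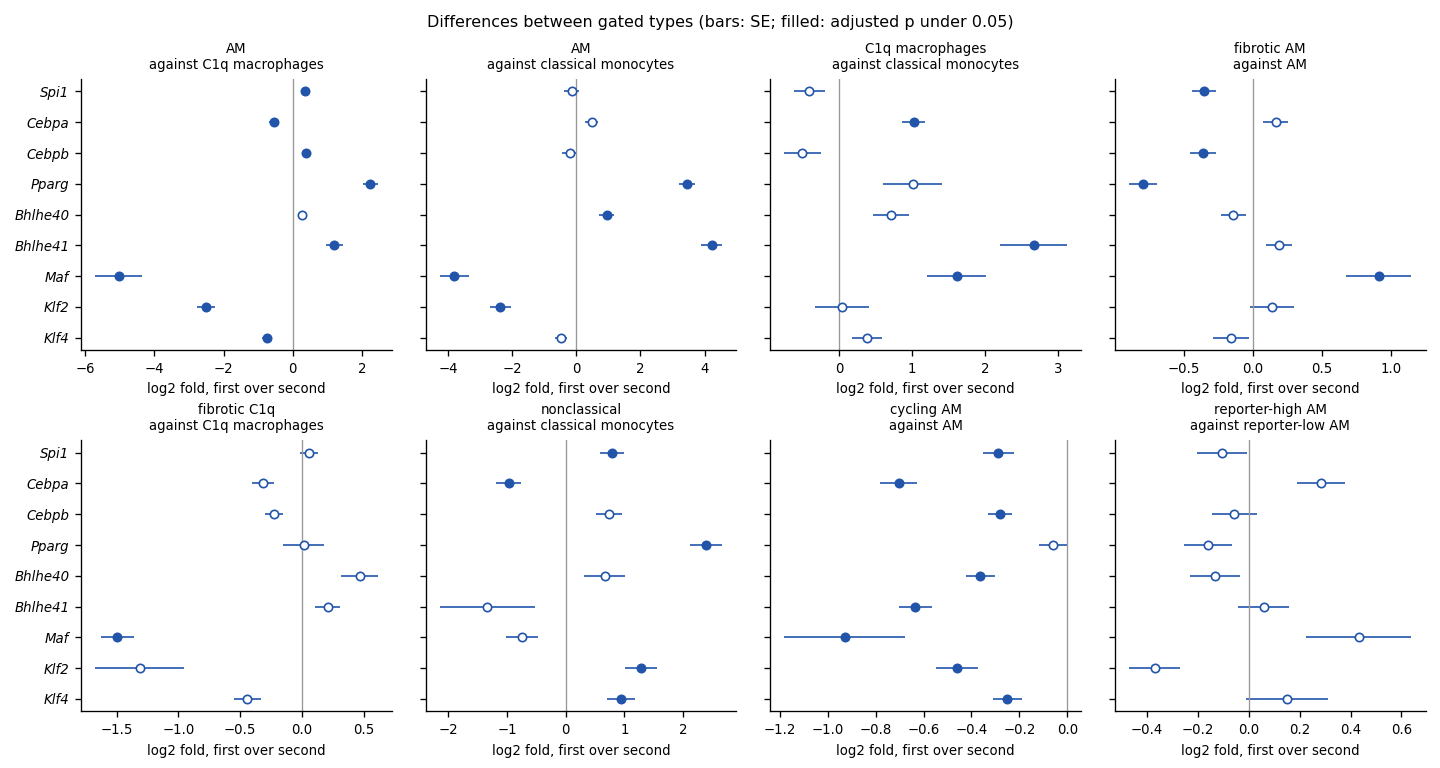
Log2 fold of each factor (x) in the 8 comparisons between gated types, as the first type over the second, with SE bars and filled points where the edgeR adjusted p was under 0.05, over 3 to 5 libraries. Maf and Klf2 lay left of 0 and Pparg and Bhlhe41 right of 0 where AMs were set against C1q macrophages or classical monocytes, and in cycling AMs 8 of 9 points were filled and left of 0.

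Maf and Pparg were then read in the fibrotic states. In fibrotic AMs, Pparg stood at 56.6, 59.9 and 51.8 CPM at days 7, 14 and 28, against 95.6, 126 and 94.1 CPM in the AMs of the same libraries. Maf stood at 13.2, 9.38 and 12.5 CPM, against 8.06, 7.81 and 5.63 CPM. Pparg was lower and Maf higher in fibrotic AMs in 3 of 3 libraries, although the counting interval of the Maf ratio lay above 0 in 1 of the 3. The Maf levels of both types in these libraries were within the range in neutrophils given above. The part of free RNA in them was not tested.
Over these 3 libraries Pparg was lower in fibrotic AMs by a log2 fold of -0.79 ± 0.10 (edgeR adjusted p = 0.000169) and Maf was higher by 0.91 ± 0.24 (edgeR adjusted p = 0.0189). Cebpb (-0.36 ± 0.09) and Spi1 (-0.35 ± 0.09) were also lower, with edgeR adjusted p of 0.0181 and 0.0179, so 4 of 9 passed against 17.1% of all 12161 genes tested. Bhlhe41 (0.19 ± 0.09), Cebpa (0.16 ± 0.09), Klf2 (0.14 ± 0.16), Klf4 (-0.16 ± 0.13) and Bhlhe40 (-0.14 ± 0.09) did not pass, with edgeR adjusted p from 0.207 to 0.649.
Only Pparg passed without the day 28 library, which holds 742 of the 886 fibrotic AMs, or with every cell thinned to 3000 UMIs. Without the day 14 library 2 of the 9 passed.
Of 10 genes in the MAF list, 5 were higher, led by Tmem119 (3.30 ± 1.00), Apoe (2.58 ± 0.19) and Stab1 (2.00 ± 0.40), and C5ar1 (-0.87 ± 0.12) and Mrc1 (-0.69 ± 0.10) were lower. The C1q macrophage markers moved with them: 6 of 8 were higher, and their sum was 275 to 521 CPM in fibrotic AMs against 112 to 221 CPM in AMs and 12230 to 15949 CPM in C1q macrophages. AM markers summed to 9091 to 11478 CPM in fibrotic AMs against 15539 to 18478 CPM in AMs. The part of either in the Maf and Pparg differences was not tested.
PPAR gamma target genes split in fibrotic AMs. Of 18 tested, 3 were higher, namely the fatty acid transporter gene Cd36 (1.94 ± 0.18), Fabp5 (0.66 ± 0.12) and the lipid droplet coat gene Plin2 (0.46 ± 0.10), and 7 were lower, led by Cidec (-2.05 ± 0.12), with Cpt1a, which serves fatty acid oxidation, at -0.51 ± 0.10. Their median log2 fold was -0.11 against -0.03 over all genes.

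Among C1q macrophages, Maf fell with the fibrotic markers. It stood at 45.4, 31.3 and 39.9 CPM in fibrotic C1q macrophages at days 7, 14 and 28, against 173, 88.0 and 94.8 CPM in C1q macrophages low in Mmp12 and Mfge8. Maf was lower in 3 of 3 libraries, and its log2 fold was -1.49 ± 0.14 (n = 3 libraries, edgeR adjusted p = 0.00246). Maf was the only 1 of the 9 factors to pass, against 4.01% of all 11958 genes tested.
Klf2 had a log2 fold of -1.31 ± 0.36 (edgeR adjusted p = 0.111) and was lower in 3 of 3 libraries, by a log2 ratio from -2.68 to -0.70. Klf4 had a log2 fold of -0.44 ± 0.11 (edgeR adjusted p = 0.0818) and Bhlhe40 of 0.46 ± 0.15, and Pparg differed by 0.01 ± 0.17. Without a filter on low counts 6 of the 9 passed, and without the day 28 library 4 passed.
Of 6 KLF2 and KLF4 target genes, 4 were lower in fibrotic C1q macrophages and none higher, led by Timd4, a phosphatidylserine receptor gene of resident macrophages (-6.81 ± 0.39), Icam2 (-4.65 ± 0.69) and the sphingosine-1-phosphate receptor gene S1pr1 (-1.10 ± 0.16). Of 10 MAF list genes, 4 were lower, led by Stab1 (-1.17 ± 0.18), Gas6 (-1.12 ± 0.18) and Tmem119 (-0.99 ± 0.15). The C1q marker list itself was lower in 7 of 8 genes, with sums of 7561 to 9744 CPM against 12230 to 12381 CPM, and its part in these values was not tested. The C1q gate takes any cells with C1qa, C1qb and C1qc and without AM markers. The mix of macrophages can therefore differ between the 2 types, and its part in the Maf, Klf2, Klf4, Timd4 and Icam2 values was not tested. Of 20 immediate early genes, 1 was lower and none higher.

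Cells of the C1q and AM gates, fibrotic ones included, and those in between were also lined up by their balance of markers. This was the share of AM markers in the sum of AM and C1q marker UMIs. It was cut into 5 bins within each library, with edges at 0.1, 0.3, 0.7 and 0.9. At day 28, Pparg stood at 14.4, 26.3, 38.0, 51.1 and 84.7 CPM from the C1q end to the AM end, and Maf at 74.6, 37.2, 23.8, 12.4 and 6.84 CPM. At day 14 Pparg stood at 18.7, 41.6, 75.3, 103 and 124 CPM and Maf at 81.8, 39.6, 28.2, 11.1 and 7.17 CPM. In both libraries each step towards the AM end had more Pparg and less Maf. Cells high in Mmp12 and Mfge8 were not kept apart in the bins, and their part in these steps was not tested.
Day 7 showed the same order for Pparg, from 12.4 to 96.1 CPM, while Maf had 65.9 CPM in the second bin and 88.7 CPM in the middle bin. Bhlhe41 rose along the bins at day 28 from 152 to 317 CPM, and its day 28 level at the C1q end was about that of AM-end cells at day 14 (153 CPM). The middle bins held 110, 230 and 623 cells at days 7, 14 and 28, while the sham library had under 20 cells in each of the 3 middle bins. A barcode with both kinds of marker can also hold 2 cells, whose part in the middle bins was not tested here.

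**Figure D3:**
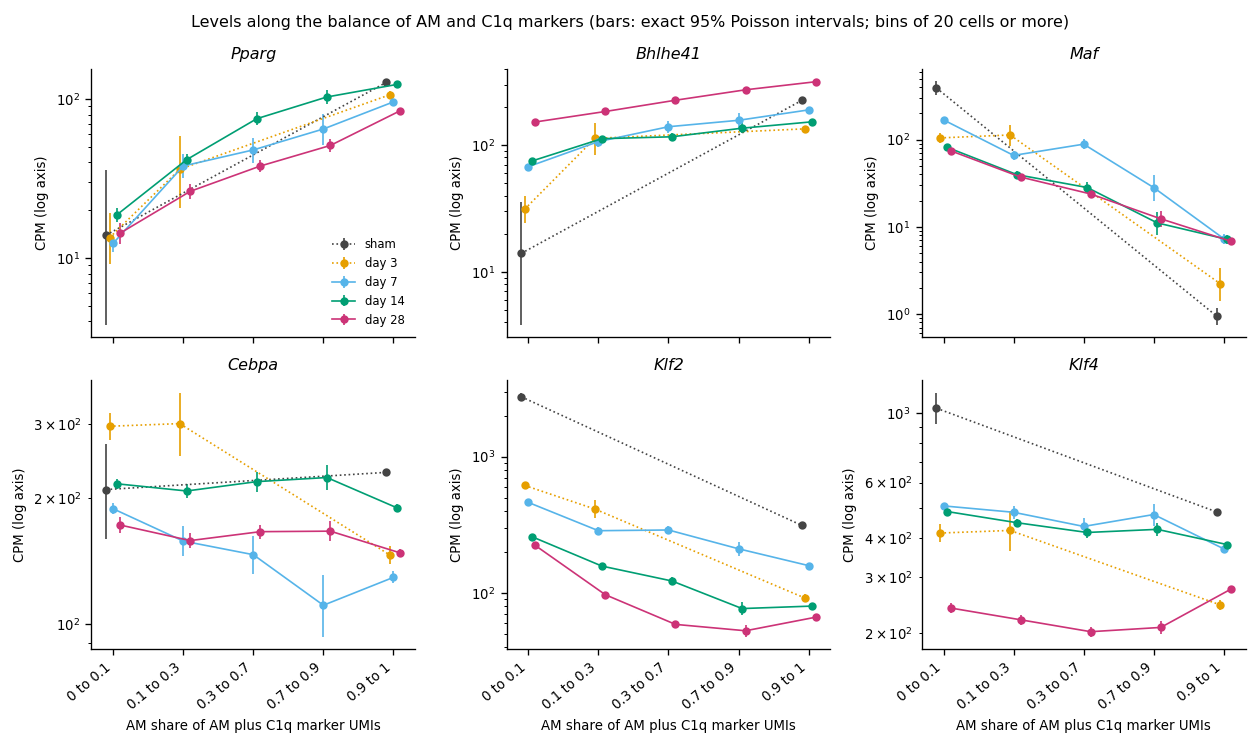
CPM on a log axis (y) of Pparg, Bhlhe41, Maf, Cebpa, Klf2 and Klf4 in bins of the AM share of AM plus C1q marker UMIs (x), with 1 line per library, exact 95% Poisson intervals and dotted lines across bins of under 20 cells. Pparg climbed from 14.4 to 84.7 CPM and Maf dropped from 74.6 to 6.84 CPM along the day 28 line.

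Klf2 and Klf4 were higher in nonclassical than in classical monocytes. Klf2 stood in nonclassical monocytes at 1898 CPM in the sham library, 1554 CPM at day 3 and 2929 CPM at day 14, and in classical monocytes at 1313, 542 and 783 CPM in the same libraries. Klf4 stood at 945, 757 and 1190 CPM in nonclassical and at 674, 397 and 407 CPM in classical monocytes. Each library had more of both in nonclassical monocytes, the patrolling cells of the vessel wall.
Across these 3 libraries, Pparg was higher in nonclassical monocytes by 2.39 ± 0.27 on the log2 scale (edgeR adjusted p = 0.000432), with 57.9, 57.4 and 85.4 CPM against 14.0, 10.6 and 9.72 CPM. Klf2 was higher by 1.29 ± 0.28 (edgeR adjusted p = 0.0128), Klf4 by 0.95 ± 0.24 (edgeR adjusted p = 0.026) and Spi1 by 0.79 ± 0.20 (edgeR adjusted p = 0.0271), and Cebpa was lower by a log2 fold of -0.97 ± 0.21 (edgeR adjusted p = 0.0144). These 5 of 9 stand against 13.3% of all 7561 genes tested. Cebpb was at 0.75 ± 0.22 (edgeR adjusted p = 0.0515), Bhlhe40 at 0.67 ± 0.35, Maf at -0.74 ± 0.27 and Bhlhe41 at -1.33 ± 0.81, which did not pass.
Fabp4 (3.61 ± 0.22) and Cd36 (3.01 ± 0.23) led the 3 PPAR gamma target genes that were higher, and Lpl (-1.29 ± 0.24) and Acadl (-1.14 ± 0.25) were lower. Among other factors Nr4a1, on which nonclassical monocytes depend, was higher by 1.51 ± 0.23.
The day 3 nonclassical gate still carried classical monocyte markers, at 11818 CPM in sum against 13806 CPM in classical monocytes, while in the sham library the sums were 2809 and 7697 CPM. Endothelial markers, which come from cells that also carry Fabp4 and Cd36, summed to 22.1 to 133 CPM in nonclassical and 8.33 to 18.3 CPM in classical monocytes. What part either had in these values was not tested. Without the day 3 library 2 of the 9 factors passed, and with the gates raised 2-fold 3 passed over 2 libraries. Pparg passed under all 11 alternatives tried in this comparison.

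Cycling AMs were lower in 8 of the 9 factors over the sham, day 7, day 14 and day 28 libraries. Cebpa (-0.70 ± 0.08) and Bhlhe41 (-0.63 ± 0.07) had edgeR adjusted p of 2.05e-05 and 1.68e-05, and Maf, at 0.964 to 4.46 CPM in cycling AMs, had a log2 fold of -0.93 ± 0.25 (edgeR adjusted p = 0.0102). Klf2 (-0.46 ± 0.09), Bhlhe40 (-0.36 ± 0.06), Spi1 (-0.29 ± 0.06), Cebpb (-0.28 ± 0.05) and Klf4 (-0.25 ± 0.06) followed. Pparg was the exception at -0.06 ± 0.06 (edgeR adjusted p = 0.439), with 130, 98.7, 134 and 96.9 CPM in cycling AMs against 128, 95.6, 126 and 94.1 CPM in AMs. PPAR gamma target genes were lower in cycling AMs in 15 of 18 with 1 higher and a median log2 fold of -0.48, led by Fabp4 (-0.77 ± 0.11), Lpl (-0.68 ± 0.08) and Olr1 (-0.63 ± 0.06). Immediate early genes were lower in 12 of 20 with 2 higher, and AM markers in 9 of 13 with none higher, and their part was not tested.
Of all 11785 genes 43.6% passed here, and the median over all genes was -0.054. Without the library block none of the 9 factors passed. By the plain CPM ratio Pparg was higher in cycling AMs in 4 of 4 libraries, by 0.02 to 0.08 on the log2 scale, so the sign of its difference depends on the scaling. By the same ratio Maf was lower in cycling AMs in 3 of the 4 libraries and the other 7 called factors in 4 of 4.

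The reporter was used to split AMs, fibrotic ones included, into cells with 10 or more and with under 2 reporter UMIs per 10000, in the day 7, 14 and 28 libraries. Reporter-high cells numbered 20, 402 and 543 and reporter-low cells 1427, 862 and 2278 in these libraries, and a reporter-low cell can be a resident cell or an unlabelled recruit. None of the 9 factors passed in edgeR's quasi-likelihood test, against 3.18% of all 11617 genes. Of the 9, 2 had an unadjusted p under 0.05, and DESeq2 also called none. Klf2 was the exception under 6 alternatives, with a log2 fold from -0.76 to -0.39, among them the fit without the day 7 library, which had the 20 reporter-high cells (-0.45, edgeR adjusted p = 0.0438). Day 7 also fell out with stricter gates (9 reporter-high cells) and with the 10% mitochondrial limit (18 cells). The fit with doublets removed had 2 libraries as well, so these alternatives are not separate from each other.
Pparg stood at 70.7, 117 and 71.4 CPM in reporter-high cells against 95.7, 122 and 85.8 CPM in reporter-low cells, with a log2 fold of -0.16 ± 0.09 (edgeR adjusted p = 0.584). Klf2 was at -0.37 ± 0.10 (edgeR adjusted p = 0.106), Cebpa at 0.29 ± 0.09 (edgeR adjusted p = 0.196) and Maf at 0.43 ± 0.21 (edgeR adjusted p = 0.449), and the other 5 lay between -0.13 and 0.15. Bhlhe41, the other AM factor, stood at 199, 141 and 334 CPM against 189, 155 and 306 CPM. An adjusted p above the threshold over 3 libraries does not show that the cells were alike.
Of the PPAR gamma target genes, 3 did pass and were lower in reporter-high cells, Pdk4 (-2.41 ± 0.17), Cidec (-2.06 ± 0.12) and Scd1 (-1.34 ± 0.15), out of 18 tested. AM markers summed to 9492 to 14609 CPM in reporter-high and 16008 to 18625 CPM in reporter-low cells, and the 5 fibrotic markers to 14660 to 25416 CPM against 3678 to 12090 CPM. What part these had in the values was not tested.

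**Figure D4:**
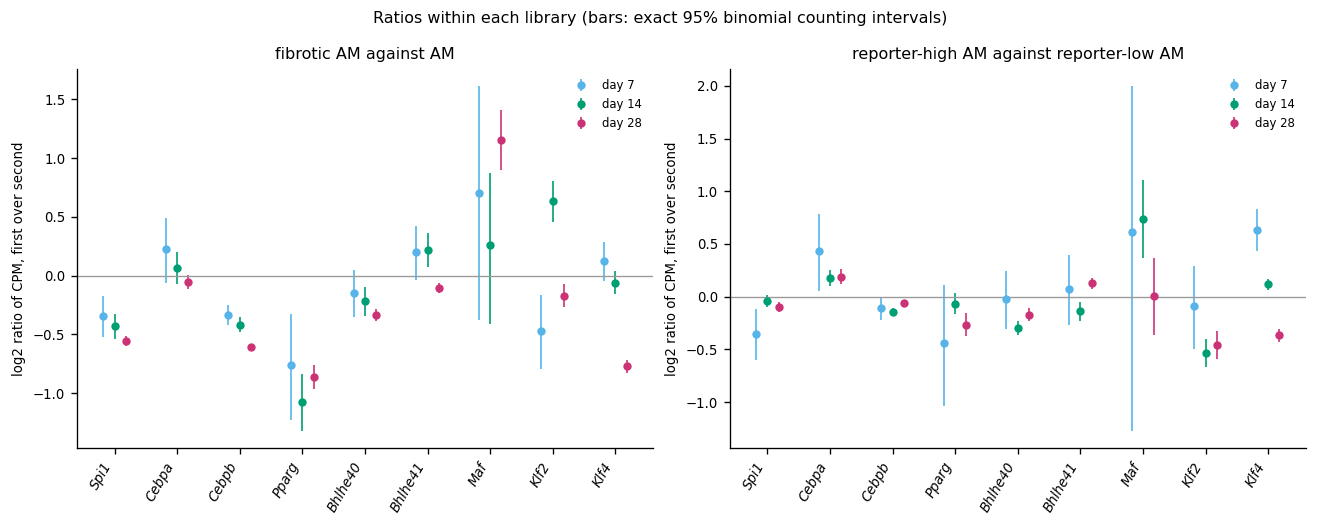
Log2 ratio of CPM (y) for the 9 factors (x) in fibrotic AMs over AMs (left) and in reporter-high over reporter-low AMs (right), with 1 point per library at days 7, 14 and 28 and exact 95% binomial counting intervals. Pparg lay below 0 in all 3 libraries of both panels, and Klf4 in the reporter panel ran from 0.63 at day 7 to -0.36 at day 28.

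Among the factors at 20 CPM or more in AMs, Klf2 differed most between sham and injured lungs. It stood at 313 CPM in sham AMs and at 91.6, 162, 77.7 and 66.1 CPM at days 3, 7, 14 and 28, which are log2 ratios of -1.77 (95% interval -1.87 to -1.68), -0.95 (-0.99 to -0.90), -2.01 (-2.07 to -1.96) and -2.24 (-2.30 to -2.19) for counting error only. All 4 bleomycin values lay below the sham value. Of the 8 factors at 20 CPM or more in either library, Klf2 was the 1 past 2-fold at days 3, 14 and 28 and none was at day 7, beside 6.78%, 4.28%, 5.79% and 6.58% of all genes at this level at days 3, 7, 14 and 28.
Klf4 stood at 485 CPM in sham AMs and at 249, 376, 388 and 308 CPM afterwards, all below the sham value. Cebpb ran from 2622 CPM at day 3 to 1182 CPM at day 14 around 2227 CPM in the sham library, and Cebpa was at 230 CPM in the sham library and at 129 to 193 CPM after bleomycin. The summed immediate early genes in AMs were 7192 CPM in the sham library and 7143, 8072, 7367 and 4791 CPM at days 3, 7, 14 and 28, with the lowest sum at day 28. Maf, under 20 CPM in AMs throughout, went from 0.943 CPM to values whose counting intervals all lay above it. None of these values reached the top of the range in neutrophils given above, and the part of free RNA was not tested.

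In C1q macrophages the sham sum came from 27 cells. Klf2 stood there at 2836 CPM and at 570, 466, 257 and 470 CPM at days 3, 7, 14 and 28, and Klf4 at 1172 CPM and then at 418, 515, 515 and 362 CPM. Klf2, Klf4 and Maf were each past 2-fold lower at all 4 times, and Bhlhe41 and Pparg were past 2-fold higher at days 14 and 28. That made 3, 3, 5 and 5 factors of the 8 or 9 at 20 CPM or more, beside 21.0%, 17.8%, 19.0% and 19.4% of all genes. For Pparg the sham level rests on 3 UMIs and was within the range in T cells given above. Its day 28 interval, a log2 ratio from -0.17 to 3.71, included 0. The day 28 ratio of Pparg turned to -0.017 with cells thinned to 3000 UMIs. The immediate early sum was 25199 CPM in the sham cells and 11264 to 15051 CPM at the later times, and its part was not tested.
In classical monocytes Bhlhe40 stood at 70.0 CPM in the sham library and at 171, 198 and 176 CPM at days 3, 7 and 14, past 2-fold at each time. Klf2 was past 2-fold lower at days 3 and 7, Maf past 2-fold higher at day 7, and Cebpb and Spi1 past 2-fold lower at day 14. The counts were 2, 3 and 3 of the 7 factors at 20 CPM or more, beside 14.3%, 14.2% and 28.5% of all genes. In nonclassical monocytes none of 8 was past 2-fold at day 3 (10.1% of all genes), and at day 14, with 35 cells, 3 of 9 were, Bhlhe40 and Cebpb lower and Bhlhe41 higher (22.9% of all genes).

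Spi1 and Cebpb kept step across types. Over the 26 sums of at least 50 cells, Pearson r of log2(CPM + 10) between them was 0.97, the highest of any pair among the 9 factors, and each was the other's most similar gene among 5412 genes at 50 CPM or more. Spi1 stood at 254 to 492 CPM in C1q macrophages, fibrotic ones included, and reached 635 to 1218 CPM in nonclassical monocytes. In neutrophils Spi1 reached 514 to 1500 CPM and Cebpb 1910 to 8046 CPM. Klf2 and Klf4 followed at r = 0.83, and Pparg and Maf were the most opposed pair at r = -0.88. The sums share libraries and, in part, depth, so these r describe the sums only.
The 3 genes most like Pparg were Sh2d1b1, Lilra5 and Ptpn12 (r of 0.94), those most like Bhlhe41 were Hvcn1, Ttyh2 and Dtx4 (r from 0.95 to 0.97), and those most like Maf were Ppib, Fam213b and Fcgr2b (r of 0.92). Klf2 was most like the ribosomal protein genes Rps7 and Rpl18 (r of 0.91), and Klf4 most like Ccnl1, 5031425E22Rik and Gm6377 (r from 0.83 to 0.87). Fgr and Rab8a came after Cebpb for Spi1, and Usf1 and Dok3 after Spi1 for Cebpb (r from 0.92 to 0.93). Cebpa was nearest to Tmed10, Mdfic and Uap1l1 (r from 0.83 to 0.86) and Bhlhe40 to Bcl2a1a, Ric1 and Sqstm1 (r from 0.65 to 0.75).
Cebpa had its highest sum in recruited macrophages at day 3, 316 CPM, next to 297 CPM in the C1q macrophages of that library, and it was at 50.5 to 90.7 CPM in nonclassical monocytes. Bhlhe40 ranged from 70.0 to 432 CPM over all 30 sums, with its highest value in fibrotic C1q macrophages at day 7, and type 2 dendritic cells had 312 to 694 CPM.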

How the data were processed

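Single-cell suspensions of perfused, collagenase-digested lungs were captured with 10x Genomics 3′ v3.1 chemistry. The deposited matrices hold UMI counts per gene and barcode, which the authors made with Cell Ranger (version 6.0.0 in the submitters' processing notes, 3.1.0 in the matrix header) on mm10, with the reporter added as a feature. The study also removed doublets by a score that is not in the matrices, so doublets stayed in here and their removal was an alternative (3822 barcodes).

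Barcodes were filtered as in the study. Gates used marker sums per 10000 UMIs, with thresholds set after marker levels, never the factors' levels, had been read. The 9 factors and the gene lists were chosen with earlier results of these data known. UMIs were summed per type and library and scaled to CPM, each gene's share of its sum times 1e6, with exact 95% Poisson intervals, and ratios with exact binomial intervals, both for counting error only. Types were compared in the libraries with at least 20 cells of both, by edgeR's quasi-likelihood test (edgeR 4.0.16, R 4.3.3) with TMM, filterByExpr, library as a block and Benjamini-Hochberg adjustment over all genes tested, at 0.05. The libraries are different time points, so p-values rest in part on the spread of a difference over them. Each fit left 2 to 4 residual degrees of freedom, and edgeR moderates each gene's spread towards a trend over all genes. A p-value therefore does not measure 1 factor's own spread alone. The fit was tested on simulated data. Alternatives were DESeq2 1.42.0, no filter on low counts, no block, each library left out, gates raised 2-fold, a 10% mitochondrial limit, thinning to 3000 UMIs per cell, a floor of 4624 UMIs, doublet removal and, for time, means of single-cell CPM. Named genes were all 9 factors, up to 3 called genes in each direction of a list, by size of the log2 fold, and the 3 genes most like each factor. Some genes that this rule names are not reported here.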

Additional observations from a re-analysis of the deposited data

Results flagged for a closer look

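In 9 cases a factor's ratio between 2 types went opposite ways in different libraries with both counting intervals clear of 0. With 1 library per time point the difference was not tested. Values are log2 ratios of CPM, first type over second.

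In AMs over classical monocytes, Spi1 was at 0.48 at day 14 and -0.55 at day 3, and Cebpb at 0.26 at day 14 and -0.52 in the sham library. In C1q macrophages over classical monocytes, Klf2 was at 1.11 in the sham library, with 27 C1q cells, and at -1.61 at day 14.

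In fibrotic AMs over AMs, Bhlhe41 was at 0.22 at day 14 and -0.11 at day 28, and Klf2 at 0.64 at day 14 and -0.47 at day 7. In fibrotic C1q macrophages over C1q macrophages, Pparg was at 0.68 at day 7 and -0.27 at day 14.

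In nonclassical over classical monocytes, Bhlhe41 was at 2.26 at day 14, from 5 UMIs in the nonclassical sum, and at -3.93 at day 3, from 2 UMIs. In reporter-high over reporter-low AMs, Bhlhe41 was at 0.13 at day 28 and -0.14 at day 14, and Klf4 at 0.63 at day 7 and -0.36 at day 28.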

How the results depend on the processing

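The calls of Pparg in 4 comparisons, of Maf and Klf2 in AMs against C1q macrophages and against classical monocytes, and of Bhlhe41 in AMs against classical monocytes held under every alternative run. No called difference of the 9 factors changed sign. Without the library block, factors called went from 8 to 4 in AMs against C1q macrophages, from 4 to 1 in fibrotic AMs, from 1 to 0 in fibrotic C1q macrophages, from 5 to 1 in nonclassical monocytes and from 8 to 0 in cycling AMs. Thinning gave 1 in fibrotic AMs, 2 in fibrotic C1q macrophages and 1 in the reporter comparison. Fibrotic C1q macrophages had 2 with DESeq2 and 6 without a filter, and nonclassical monocytes 3 with stricter gates and 2 with the UMI floor. The reporter comparison had 1 without a filter, with stricter gates, with the 10% mitochondrial limit and without doublets. Leaving out each library in turn gave 5 to 8 in AMs against C1q macrophages, 4 to 6 in AMs against classical monocytes, 0 to 3 in C1q macrophages against classical monocytes, 1 to 4 in fibrotic AMs, 1 to 4 in fibrotic C1q macrophages, 2 to 5 in nonclassical monocytes, 7 to 8 in cycling AMs and 0 to 1 in the reporter comparison. Of the factors' ratios over sham under the alternatives, 534 stayed within the counting interval of the main value and 147 moved outside it. The 1 past 2-fold that changed sign was Pparg in C1q macrophages at day 28 over sham, which turned to -0.017 when thinned. The cause was not tested.

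Over all genes, calls without the block went from 1008 to 506 in C1q macrophages against classical monocytes, from 2085 to 367 in fibrotic AMs, from 479 to 2 in fibrotic C1q macrophages, from 1007 to 110 in nonclassical monocytes, from 5139 to 1510 in cycling AMs and from 369 to 3 in the reporter comparison. Without a filter they were 1083 in fibrotic C1q macrophages, 1696 in nonclassical monocytes and 811 in the reporter comparison. Thinned, they were 1144 in fibrotic AMs, 199 in fibrotic C1q macrophages and 2508 in cycling AMs. DESeq2 called 659 in nonclassical monocytes, and the reporter comparison had 559 with the 10% mitochondrial limit and 649 without doublets, both over 2 libraries. Leaving out each library in turn gave 3307 to 5245 calls in AMs against C1q macrophages, 1756 to 3811 in AMs against classical monocytes, 282 to 1159 in C1q macrophages against classical monocytes, 1112 to 3073 in fibrotic AMs, 187 to 796 in fibrotic C1q macrophages, 635 to 1097 in nonclassical monocytes, 4076 to 4578 in cycling AMs and 303 to 374 in the reporter comparison. The 2 types of a comparison were paired within each library by the block, and time points, with 1 library each, could not be paired.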
